A study of Mus musculus with 12 samples.

Results

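The Sonic hedgehog pathway genes described here were 8 core components, namely Shh, Ptch1, Smo, Gli1, Gli2, Gli3, Hhip and Sufu. They were chosen by gene symbol, from a list drawn up with the levels in these same 12 samples known, and all 8 were found among the 55862 genes of the table. Their levels and differences are therefore given as a description with no test, while tests are given for 60 other Hedgehog pathway genes. That list was also drawn up with earlier results of these data known, so its counts are not independent evidence. Total RNA from mouse brain cells was sequenced in 4 groups of 3 samples. The labels give the strain C57BL/6 for all, while the study's methods give C57BL/6 for the astrocytes and C57BL/6J for the freshly dissociated cells. ASTs were primary astrocytes from the cortex of newborn mice, grown as a monolayer in medium with serum (day 0 of the incubation, the study's negative control). A-iSCs were such astrocytes kept for 5 days on an agarose surface, where they form spheres. P56-NPCs were cells dissociated from the adult subependymal zone (postnatal day 56), and P0-NPCs were cells dissociated from the newborn hippocampus (postnatal day 0). Both suspensions were described without a sort, so they can hold all cell types of the dissected tissue, and tissue, age and culture state cannot be told apart between the cultured and the fresh groups.

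In the Hedgehog pathway, the secreted ligand Sonic hedgehog binds the receptor Patched, which otherwise holds the membrane protein Smoothened inactive. Once released, Smoothened acts at the primary cilium, and Gli transcription factors are freed from their inhibitor Sufu and turn on target genes. Ptch1, Hhip and Gli1 are widely used as readouts of the pathway because they are among its direct targets, and the first 2 also restrain it. In the brain the pathway is known for patterning the neural tube, for the growth of granule cell precursors and for maintaining adult neural stem cells.

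Levels are given in FPKM (fragments normalized to gene length and library size), a scale that takes gene length into account, so that genes can be compared with each other. Each library held between 17077780 and 24452419 fragments on genes, and 3 fragments of Shh corresponded to 0.0362 to 0.0657 FPKM. A-iSCs replicate 3 and ASTs replicate 2 stood apart from the other samples of their group. A chi-square of fragments over genes, per degree of freedom, was 83.3 to 105 for the pairs with A-iSCs replicate 3 against 13.4 for the other pair, and at least 43.5 for the pairs with ASTs replicate 2 against 2.63. In the other 2 groups it was 6.77 to 20.7. Values without them are given beside many of the differences of the 8 genes and beside the counts of other pathway genes. Mitochondrial genes took 16.5% to 17.6% of fragments in the P56-NPCs and at most 7.03% in any other sample. In bulk RNA, fewer cells that express a gene and less RNA per cell cannot be told apart. The defining markers did not fully follow the labels. Gfap, an astrocyte filament gene, averaged 29.9 ± 2.30 FPKM in the ASTs and 970.0 ± 448 FPKM in the A-iSCs (SD, n = 3). The summed level of 7 fibroblast and meningeal markers was 367 to 437 FPKM in the ASTs, with 4 of the 7 at 1 FPKM or more and Col1a1 at 158 ± 24.2 FPKM, although Dcn was at 0.248 ± 0.0338 FPKM. The same sum was 15.7 to 17.0 FPKM in the A-iSCs. The 7 oligodendrocyte lineage markers summed to 8034 to 9124 FPKM in the P56-NPCs and to at most 140 FPKM elsewhere. The summed level of the 10 neuron markers was highest in the P0-NPCs, at 871 to 1049 FPKM, led by Tubb3 at 634 ± 84.2 FPKM, while Map2, Snap25, Syt1, Gad1 and Gad2 had higher means in the P56-NPCs. The 7 ependymal and choroid plexus markers summed to 1692 to 3454 FPKM in the P56-NPCs, to 825 to 3885 FPKM in the P0-NPCs and to at most 75.4 FPKM in the cultures, with Ttr at 2216 ± 843 FPKM and 2246 ± 1511 FPKM in the suspensions and Foxj1 at 43.3 ± 3.81 FPKM already in the ASTs. The 8 stem or progenitor markers summed to 321 to 369 FPKM in the cultures and to 174 to 201 FPKM in the suspensions. Sox2 and Nes made up most of the sums in the cultures (135 and 196 FPKM in the ASTs, 208 and 70.1 FPKM in the A-iSCs). Hopx had its highest mean in the P56-NPCs, and Eomes, Prom1 and Pax6 had theirs in the P0-NPCs. The 8 astrocyte markers summed to 140 to 159 FPKM in the ASTs and to 1200 to 2456 FPKM in the A-iSCs. They summed to 2481 to 2713 FPKM in the P56-NPCs and to 239 to 305 FPKM in the P0-NPCs. This sum was thus higher than in the ASTs in each group compared with them. In the P0-NPCs, however, Aqp4, Aldh1l1 and Gja1 had lower means than in the ASTs. The endothelial and pericyte markers summed to 122 to 131 FPKM in the P0-NPCs against 4.25 to 5.04 FPKM in the A-iSCs. Slc17a6 and Cldn5 were listed at 0 in all AST samples.

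The gene for the ligand showed the widest range of the 8. Shh (ENSMUSG00000002633, chromosome 5, 28456815 to 28467256, minus strand, GRCm38) was at 53.6, 61.3 and 51.5 FPKM in the 3 AST samples. In the A-iSCs it was at 1.27, 0.753 and 0.734 FPKM, in the P56-NPCs at 0.142, 0.306 and 0.128 FPKM, and in the P0-NPCs at 0.138, 0.0362 and 0.0638 FPKM. Every AST sample lay far above every other sample, the A-iSCs came next without overlap, and the P56-NPC and P0-NPC samples overlapped. The mean level fell from 55.4 ± 5.15 FPKM in the ASTs to 0.920 ± 0.305 FPKM in the A-iSCs (SD, n = 3), a ratio of 60.3, and was 289 times that of the P56-NPCs. It was 698 times that of the P0-NPCs, or 1109 times without P0-NPCs replicate 1. In fragments, the ASTs held 2557 to 3537 per sample, the A-iSCs 51 to 73, the P56-NPCs 6 to 14 and the P0-NPCs 3 to 9, so the levels of the fresh suspensions rest on few fragments. In the ASTs Shh ranked 958 of 21926 protein-coding genes. An antisense RNA that overlaps Shh, 9530036O11Rik, reached at most 9 fragments in any sample, although the strand of the counting was not stated. The summed level of the fibroblast and meningeal markers was highest in the same 3 AST samples, carried by Fmod (229 ± 9.99 FPKM) and Col1a1, while Col1a2, Dcn, Lum and Foxc1 were highest in the P0-NPCs and Pdgfra in the P56-NPCs. Their part in the Shh level was not tested.

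The other Hedgehog ligands were low in every group. Dhh, which is best known from Schwann cells and the testis, was at 0.417 ± 0.0115 FPKM in the ASTs and at 0.0472 ± 0.0197 FPKM in the A-iSCs, from 31 to 38 and 3 to 8 fragments per sample. Ihh, the ligand of growing cartilage, was at 0.0922 ± 0.0355 FPKM in the ASTs and at 0.0959 ± 0.0706 FPKM in the A-iSCs. Both were below the filter of a mean of 1 FPKM in 1 of the groups compared, so neither was tested in any comparison.

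**Figure D1:**
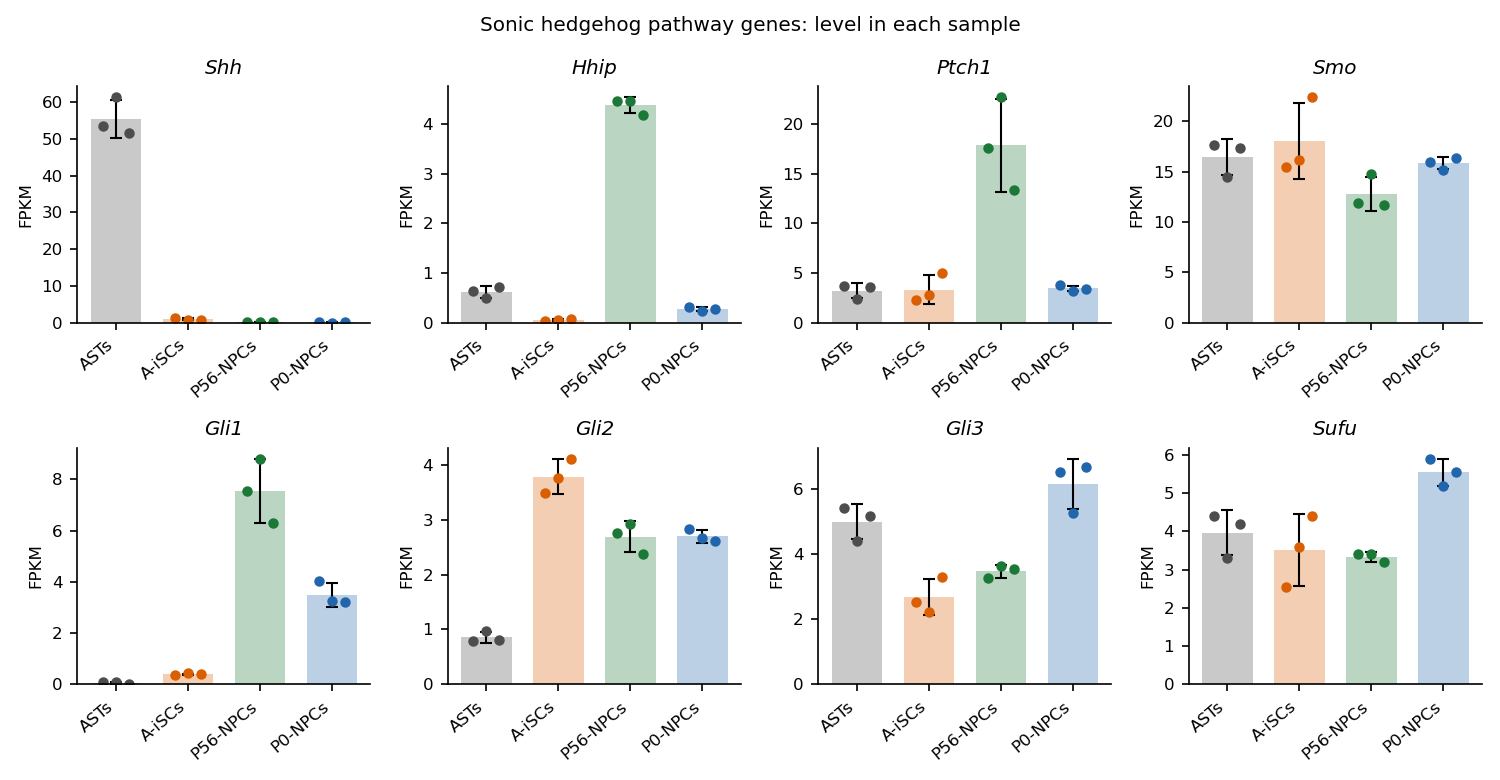
Level in FPKM (vertical axis from 0, its range differing between panels) of the 8 Sonic hedgehog pathway genes in the 4 groups. Points are samples, bars are means and error bars are SD (n = 3, cut at 0). Shh stood out in the ASTs with a mean of 55.4 FPKM, Hhip and Ptch1 stood out in the P56-NPCs with means of 4.38 and 17.9 FPKM, and Gli1 was near 0 in the ASTs.

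Among the proteins that receive or sequester the ligand, Ptch1 and Hhip were highest in the P56-NPCs. Ptch1 (ENSMUSG00000021466, chromosome 13, 63508328 to 63573598, minus strand) encodes the receptor. It was at 17.5, 22.7 and 13.3 FPKM in the P56-NPCs, and between 2.32 and 4.95 FPKM in the other 9 samples. The P56-NPCs lay apart from the rest, while the ASTs (3.24 ± 0.764 FPKM), the A-iSCs (3.34 ± 1.41 FPKM) and the P0-NPCs (3.46 ± 0.260 FPKM) overlapped (SD, n = 3). The P56-NPC mean of 17.9 ± 4.68 FPKM was 5.51 times that of the ASTs.

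Hhip (ENSMUSG00000064325, chromosome 8, 79965851 to 80058006, minus strand) encodes a membrane protein that binds the ligand and removes it from signaling. It was at 4.47, 4.48 and 4.19 FPKM in the P56-NPCs, at 0.631, 0.489 and 0.730 FPKM in the ASTs, and at 0.313, 0.227 and 0.284 FPKM in the P0-NPCs. In the A-iSCs it was at 0.0383, 0.0556 and 0.0658 FPKM, from 7 to 16 fragments per sample. None of the 4 groups overlapped, and the order ran from the P56-NPCs over the ASTs and the P0-NPCs to the A-iSCs. The P56-NPC mean was 7.11 times the AST mean and 82.3 times the A-iSC mean, and the A-iSC mean was 11.6 times below that of the ASTs. Ptch1, a gene that shares with Hhip the binding of the ligand, did not follow it from ASTs to A-iSCs. The summed oligodendrocyte lineage and astrocyte markers were also highest in the P56-NPCs (8034 to 9124 and 2481 to 2713 FPKM). Of the astrocyte markers, however, Gfap, Aqp4 and Aldh1l1 were highest in the A-iSCs. The microglia and the ependymal and choroid plexus markers were higher in the P56-NPCs than in the ASTs. The part of these cell types in the levels of Ptch1 and Hhip was not tested.

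The start sites of Ptch1 and Hhip are shown because both genes stood apart in the P56-NPCs. Gli1 also stood apart there, but no promoter sequence was available for it. The 250 bases before the RefSeq start on GRCm38.p6 are printed 5′ to 3′ on the strand of the gene (minus for both), with CG dinucleotides in capitals. The Ptch1 stretch lies at chr13:63565736-63565985, inside the annotated span of the gene, and the Hhip stretch at chr8:80058009-80058258, upstream of the gene.
Ptch1: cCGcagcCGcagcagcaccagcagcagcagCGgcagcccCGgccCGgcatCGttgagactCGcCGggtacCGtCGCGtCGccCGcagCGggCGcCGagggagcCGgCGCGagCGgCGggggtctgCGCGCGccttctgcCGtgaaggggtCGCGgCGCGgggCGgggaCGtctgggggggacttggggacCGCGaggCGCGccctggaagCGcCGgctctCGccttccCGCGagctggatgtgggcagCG
Hhip: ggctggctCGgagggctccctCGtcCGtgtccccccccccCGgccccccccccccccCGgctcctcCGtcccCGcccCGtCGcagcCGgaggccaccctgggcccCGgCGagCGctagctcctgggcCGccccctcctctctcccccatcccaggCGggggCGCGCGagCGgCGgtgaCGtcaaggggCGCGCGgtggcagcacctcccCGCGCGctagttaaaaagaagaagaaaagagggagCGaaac
The Ptch1 stretch held 41 CG dinucleotides and 78.4% G or C bases, and the Hhip stretch 28 CG dinucleotides and 76.0%. The median of all 32544 windows of the table was 6, with quartiles of 2 and 16. The GLI consensus GACCACCCA was searched on both strands (TGGGTGGTC on the other) in the 300 bases from 250 before to 50 after the start. No match was found for the 6 members that had a window (Ptch1, Smo, Gli2, Gli3, Hhip and Sufu), either exact or with 1 mismatch outside CCACCC. Of all windows, 0.246% held an exact match and 3.30% one with at most 1 such mismatch, so these letters were rare in windows of this length.

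Smo varied least among the groups. Smo (ENSMUSG00000001761, chromosome 6, 29735503 to 29761365, plus strand) encodes the signal transducer Smoothened. It was at 17.6, 14.4 and 17.4 FPKM in the ASTs, at 15.5, 16.2 and 22.4 FPKM in the A-iSCs, at 11.9, 14.8 and 11.7 FPKM in the P56-NPCs, and at 16.0, 15.2 and 16.3 FPKM in the P0-NPCs. The A-iSCs, the ASTs and the P0-NPCs overlapped, and the P56-NPCs were lowest and overlapped with the ASTs. The ratio of Ptch1 to Smo, both in FPKM, was 0.195 ± 0.0272 in the ASTs, 0.180 ± 0.0369 in the A-iSCs and 0.219 ± 0.0133 in the P0-NPCs, against 1.38 ± 0.212 in the P56-NPCs. The ratio of Shh to Ptch1 was 18.2 ± 6.76 in the ASTs and 0.324 ± 0.205 in the A-iSCs.

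Sufu (ENSMUSG00000025231, chromosome 19, 46396896 to 46488804, plus strand), which encodes the inhibitor that holds Gli proteins in the cytoplasm, also varied little. It was at 5.89, 5.18 and 5.57 FPKM in the P0-NPCs, and between 2.54 and 4.41 FPKM in the other 9 samples. The P0-NPCs lay above all others, and the ASTs, the A-iSCs and the P56-NPCs overlapped at means of 3.97 ± 0.584, 3.51 ± 0.939 and 3.34 ± 0.128 FPKM (SD, n = 3).

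The 3 Gli genes followed 3 different patterns. Gli1 (ENSMUSG00000025407, chromosome 10, 127329882 to 127341974, minus strand) encodes an activator whose own transcription depends on the pathway. It was at 0.0716, 0.0691 and 0 FPKM in the ASTs, where 13 fragments were counted in all and 3 fragments would have given 0.0323 FPKM in the sample at 0. It was at 0.368, 0.421 and 0.381 FPKM in the A-iSCs, at 7.55, 8.81 and 6.28 FPKM in the P56-NPCs, and at 4.03, 3.25 and 3.21 FPKM in the P0-NPCs. All 4 groups lay apart, and the order was the P56-NPCs, the P0-NPCs, the A-iSCs and the ASTs. The mean of the A-iSCs was 8.31 times that of the ASTs (5.54 times without ASTs replicate 3, the sample at 0), but it was 19.4 times below the P56-NPCs and 8.98 times below the P0-NPCs. Gli1 shares 62 bases with Arhgap9 on the opposite strand, a gene at 5.08 ± 0.830 FPKM in the A-iSCs against 0.517 ± 0.0549 FPKM in the ASTs, and its part in the Gli1 level of the A-iSCs was not tested. This overlap was looked up after the values had been seen. The samples with the highest Shh, the ASTs, thus had the lowest Gli1.

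Gli2 (ENSMUSG00000048402, chromosome 1, 118834132 to 119053619, minus strand) encodes the main activator at the start of a response. It was at 0.790, 0.976 and 0.800 FPKM in the ASTs and at 3.49, 3.77 and 4.12 FPKM in the A-iSCs. In the P56-NPCs it was at 2.77, 2.93 and 2.39 FPKM, and in the P0-NPCs at 2.84, 2.67 and 2.61 FPKM. The A-iSCs lay above all other samples and the ASTs below them, while the P56-NPCs and P0-NPCs overlapped. The A-iSC mean was 4.43 times that of the ASTs.

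Gli3 (ENSMUSG00000021318, chromosome 13, 15463235 to 15730026, plus strand) encodes the main repressor in the absence of ligand. It was at 5.43, 4.41 and 5.17 FPKM in the ASTs and at 2.53, 2.23 and 3.31 FPKM in the A-iSCs. In the P56-NPCs it was at 3.26, 3.64 and 3.54 FPKM, and in the P0-NPCs at 6.52, 5.27 and 6.69 FPKM. The P0-NPCs and the ASTs overlapped and lay above the P56-NPCs and the A-iSCs, which overlapped with each other. Gli3 was 1.86 times higher in the ASTs than in the A-iSCs, the opposite order to Gli2.

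The makeup of the Gli RNA therefore differed between groups. Gli3 made up 84.6% ± 3.25 of the summed Gli1, Gli2 and Gli3 FPKM in the ASTs and 38.9% ± 3.87 in the A-iSCs (SD, n = 3). Gli2 made up 14.6% ± 2.88 in the ASTs and 55.4% ± 3.04 in the A-iSCs, where it was the leading Gli gene. Gli1 led in the P56-NPCs at 54.8% ± 2.99, and made up 28.3% ± 2.32 in the P0-NPCs, 5.73% ± 0.842 in the A-iSCs and 0.802% ± 0.698 in the ASTs. The sum itself was 5.90 ± 0.423 FPKM in the ASTs, 6.87 ± 0.810 in the A-iSCs, 13.7 ± 1.59 in the P56-NPCs and 12.4 ± 1.11 in the P0-NPCs.

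**Figure D2:**
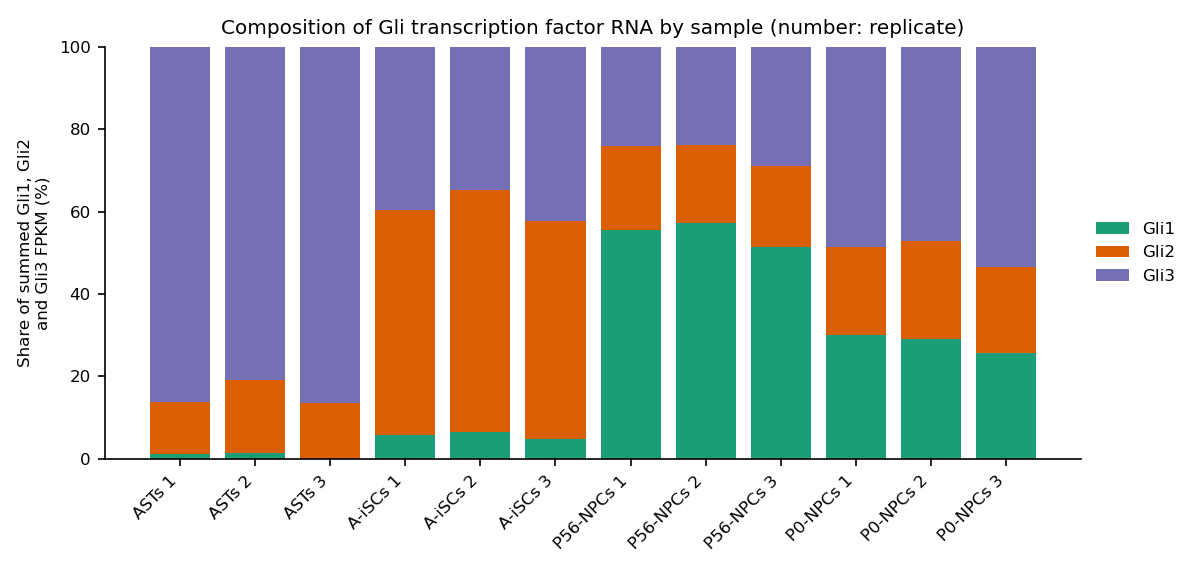
Share in percent (vertical axis) of Gli1, Gli2 and Gli3 in their summed FPKM, with 1 stacked bar for each of the 12 samples. Gli3 took 80.8% to 86.6% in the ASTs, Gli2 took 52.8% to 58.7% in the A-iSCs, and Gli1 took 51.5% to 57.3% in the P56-NPCs.

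The differences between groups, on the log2(FPKM + 1) scale, which understates the change of low genes, are given next as values from the fit across all genes with their standard errors. Between A-iSCs and ASTs, Shh differed by -4.89 ± 0.14, Gli3 by -0.71 ± 0.14 and Gli2 by 1.37 ± 0.11. Ptch1, Smo and Sufu differed by 0.00 ± 0.24, 0.11 ± 0.16 and -0.15 ± 0.18, and Gli1 and Hhip were below the filter. Shh passed the filter through the ASTs alone and Gli2 through the A-iSCs alone, which fixed their direction. Without A-iSCs replicate 3 the values were -4.82 for Shh, 1.32 for Gli2, -0.83 for Gli3, -0.25 for Ptch1, -0.05 for Smo and -0.29 for Sufu, and without ASTs replicate 2 they were -4.81, 1.41, -0.78, -0.16, 0.02 and -0.25 in the same order. Ptch1 and Smo lay near 0, and the signs of Ptch1, Smo and Sufu depended on single samples. Without A-iSCs replicate 1, Sufu lay just above 0. Across all genes tested in this comparison, 25.2% were called higher in the A-iSCs and 29.6% lower (limma, adjusted p under 0.05).

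Between P56-NPCs and ASTs, Gli1 differed by 3.02 ± 0.12, Ptch1 by 2.14 ± 0.21, Hhip by 1.74 ± 0.08 and Gli2 by 0.99 ± 0.09. Of these, Gli1, Hhip and Gli2 passed the filter through the P56-NPCs alone. Shh differed by -5.56 ± 0.10, Gli3 by -0.42 ± 0.09, Smo by -0.34 ± 0.12 and Sufu by -0.19 ± 0.10. Between P0-NPCs and ASTs, Gli1 differed by 2.10 ± 0.10, Sufu by 0.40 ± 0.11 and Shh by -5.71 ± 0.09. Gli3, Ptch1 and Smo differed by 0.25 ± 0.11, 0.09 ± 0.14 and -0.05 ± 0.10, Hhip was below the filter, and the mean FPKM of Gli2 was 3.16 times that of the ASTs. Without ASTs replicate 2, Ptch1 differed by 1.98, Smo by -0.43 and Sufu by -0.29 for the P56-NPCs. For the P0-NPCs Ptch1 then differed by -0.07, with its sign turned, Smo by -0.14, Gli3 by 0.18 and Sufu by 0.30. Shh differed by -5.49 and -5.63 for the P56-NPCs and the P0-NPCs. In both comparisons Shh passed the filter through the ASTs alone, and against the P0-NPCs Gli1 and Gli2 passed through the P0-NPCs alone, so the filter fixed these directions too. These 3 comparisons share the AST samples. Here the background was 39.1% higher and 39.8% lower for the P56-NPCs, and 38.1% higher and 40.9% lower for the P0-NPCs.

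Between A-iSCs and P56-NPCs, Gli1 differed by -2.61 ± 0.13, Hhip by -2.35 ± 0.09 and Ptch1 by -2.14 ± 0.26. Gli1 and Hhip passed the filter through the P56-NPCs alone. Smo differed by 0.45 ± 0.16, Gli2 by 0.38 ± 0.10, Gli3 by -0.29 ± 0.13 and Sufu by 0.04 ± 0.16. Between A-iSCs and P0-NPCs, Gli1, which passed the filter through the P0-NPCs alone, differed by -1.69 ± 0.12, Gli3 by -0.96 ± 0.15 and Sufu by -0.56 ± 0.16, while Gli2 differed by 0.37 ± 0.10, Smo by 0.16 ± 0.15 and Ptch1 by -0.09 ± 0.21. Without A-iSCs replicate 3, Ptch1 differed by -2.39, Gli1 by -2.61, Hhip by -2.36, Smo by 0.29, Gli2 by 0.33, Gli3 by -0.41 and Sufu by -0.11, with its sign turned, against the P56-NPCs. Against the P0-NPCs Ptch1 then differed by -0.34, Gli1 by -1.69, Gli3 by -1.08, Sufu by -0.70, Gli2 by 0.32 and Smo by 0.0015. The background was 30.1% higher and 30.9% lower against the P56-NPCs, and 31.5% higher and 33.6% lower against the P0-NPCs.

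**Figure D3:**
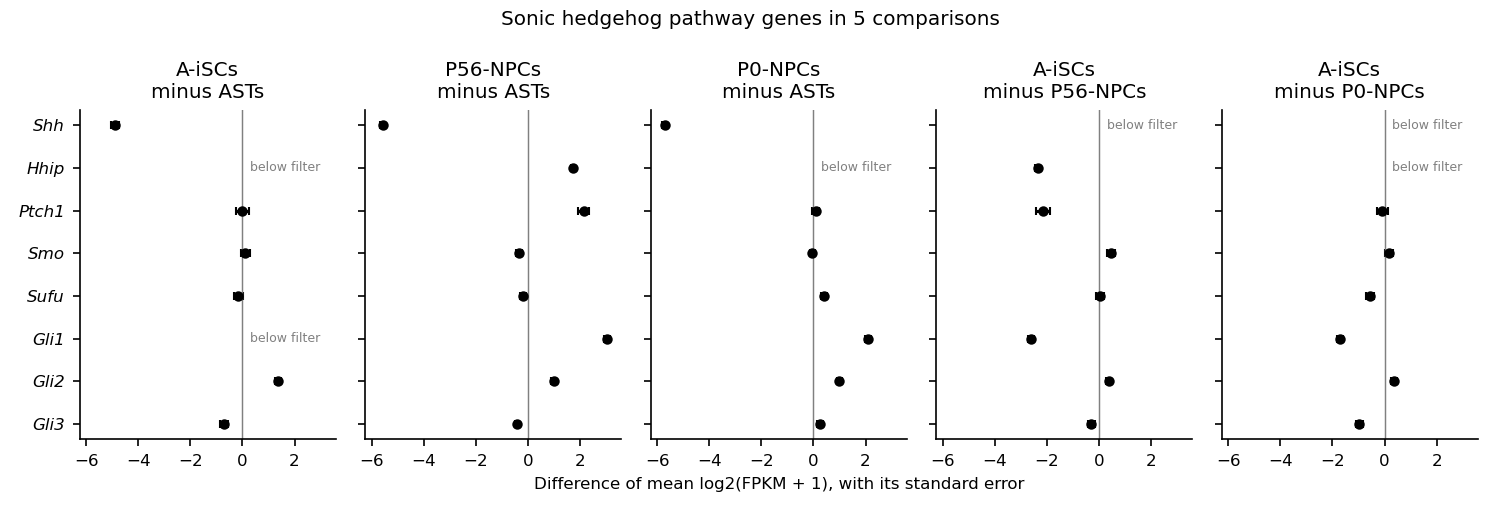
Difference of mean log2(FPKM + 1) between the first and the second group named above each panel (horizontal axis) for the 8 pathway genes, with the standard error of the fit. Shh lay at -4.89 or lower against the ASTs, Gli1 lay at 2.10 and 3.02 for the fresh suspensions over the ASTs, and Smo stayed between -0.34 and 0.45 in all 5 comparisons.

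The other pathway genes were tested as the rest of the route around these components. Of 60 genes, 51 passed the filter between A-iSCs and ASTs, and 10 rose, 22 fell and 19 did not pass the test. The share that fell, 22 of 51, stands beside 29.6% of all genes tested, and the share that rose, 10 of 51, beside 25.2%. Without A-iSCs replicate 3 the counts were 12 higher and 22 lower, and without ASTs replicate 2 they were 9 and 21. The median log2 fold change of -0.07 was near the -0.06 of all genes tested. Of the 32 calls 31.2% were higher, against 46.0% of the calls over all genes. The scaling moved both shares, to 16 higher and 17 lower (48.5% against 60.4% over all genes) when only library size was used, and to 15 higher and 17 lower (46.9% against 61.0%) with the upper quartile. Of the 22 genes that fell, 7 passed the filter through the ASTs alone, so the filter fixed their direction, and 1 of the 10 that rose passed through the A-iSCs alone.

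Genes that modify, release and carry the ligand were represented by 6 genes, of which 3 passed the filter, and these 3 all fell in the A-iSCs, beside 29.6% of all genes tested. Scube3, a secreted carrier of the ligand, went from 18.4 to 3.11 FPKM (log2 fold change -2.23 ± 0.18, adjusted p = 6.52e-05). Disp1, the transporter that releases the lipid-modified ligand, went from 4.53 to 1.95 FPKM (-0.91 ± 0.11, adjusted p = 0.000419). Its relative Disp2 went from 2.11 to 0.571 FPKM (-0.98 ± 0.12, adjusted p = 0.000474), and passed the filter through the ASTs alone. Hhat, which attaches the fatty acid to the ligand, was below the filter at 0.334 ± 0.0625 FPKM in the ASTs and 0.169 ± 0.0503 FPKM in the A-iSCs.

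Among the receptor and co-receptor proteins, 1 of 5 tested rose and 3 fell between ASTs and A-iSCs, where 2 of the 3 (Lrp2 and Gpc3) passed the filter through the ASTs alone, beside 25.2% and 29.6% of all genes tested. Gas1, a membrane-anchored co-receptor, rose from 6.83 to 20.4 FPKM (1.41 ± 0.22, adjusted p = 0.00132). Boc, a co-receptor of the immunoglobulin superfamily, fell from 14.3 to 8.63 FPKM (-0.66 ± 0.14, adjusted p = 0.00546), and its relative Cdon was at 6.51 and 5.60 FPKM and did not pass the test (-0.20 ± 0.24, adjusted p = 0.507). Lrp2, an endocytic receptor that can bind the ligand, fell from 15.3 to 0.919 FPKM (-3.06 ± 0.18, adjusted p = 1.45e-05). Gpc3, a glypican that competes for the ligand, fell from 1.71 to 0.481 FPKM (-0.87 ± 0.12, adjusted p = 0.00092).

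Of the ciliary and intracellular regulators, 8 of 29 were higher in the A-iSCs than in the ASTs, 7 lower and 14 did not pass the test, shares near the 25.2% and 29.6% of all genes tested. The beta-arrestin gene Arrb2 rose most (5.93 to 36.3 FPKM, 2.39 ± 0.23, adjusted p = 0.000137). Its relative Arrb1 also rose (0.924 to 4.92 FPKM, 1.60 ± 0.19, adjusted p = 0.000342), but it passed the filter through the A-iSCs alone, which fixed its direction. Both proteins act on many receptors besides Smoothened. Microglia markers, which summed to 21.2 to 26.4 FPKM in the ASTs, summed to 202 to 265 FPKM in the A-iSCs, and their part in the beta-arrestin levels was not tested. Stk36, a kinase of the fused family, rose from 1.58 to 3.30 FPKM (0.73 ± 0.12, adjusted p = 0.00205). Prkaca, the catalytic subunit of protein kinase A, which marks Gli proteins for processing, fell from 80.7 to 47.4 FPKM (-0.76 ± 0.12, adjusted p = 0.00166). Spop, an adaptor for the breakdown of Gli proteins, and Rab23, a small GTPase that opposes the pathway, fell by 0.71 and by 0.65 on the log2 scale (adjusted p = 0.00348 and 0.00306). The ciliary kinesin gene Kif7 was called higher (0.42 ± 0.12, adjusted p = 0.0207), a call that was lost without ASTs replicate 3 (0.37, adjusted p = 0.0893) or without A-iSCs replicate 2 (0.34, adjusted p = 0.0743). The ciliary receptor gene Gpr161 did not pass the test (0.06 ± 0.17, adjusted p = 0.801).

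Of genes that are targets of the pathway in some tissues, 1 of 14 rose and 9 fell in the A-iSCs, where 4 of the 9 (Foxf1, Foxf2, Foxa2 and Snai1) passed the filter through the ASTs alone, beside 25.2% and 29.6% of all genes tested. The D-type cyclins, which respond to many growth signals, changed most. Ccnd1 fell from 428 to 12.3 FPKM (-5.00 ± 0.20, adjusted p = 5.14e-06) and Ccnd2 from 191 to 19.7 FPKM (-3.24 ± 0.20, adjusted p = 1.93e-05). Snai1, a transcription factor of epithelial to mesenchymal transition, fell from 3.66 to 0.452 FPKM (-1.68 ± 0.13, adjusted p = 4.23e-05). Mycn, a growth-promoting factor of neural precursors, rose from 1.15 to 3.75 FPKM (1.13 ± 0.15, adjusted p = 0.000586).

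**Figure D4:**
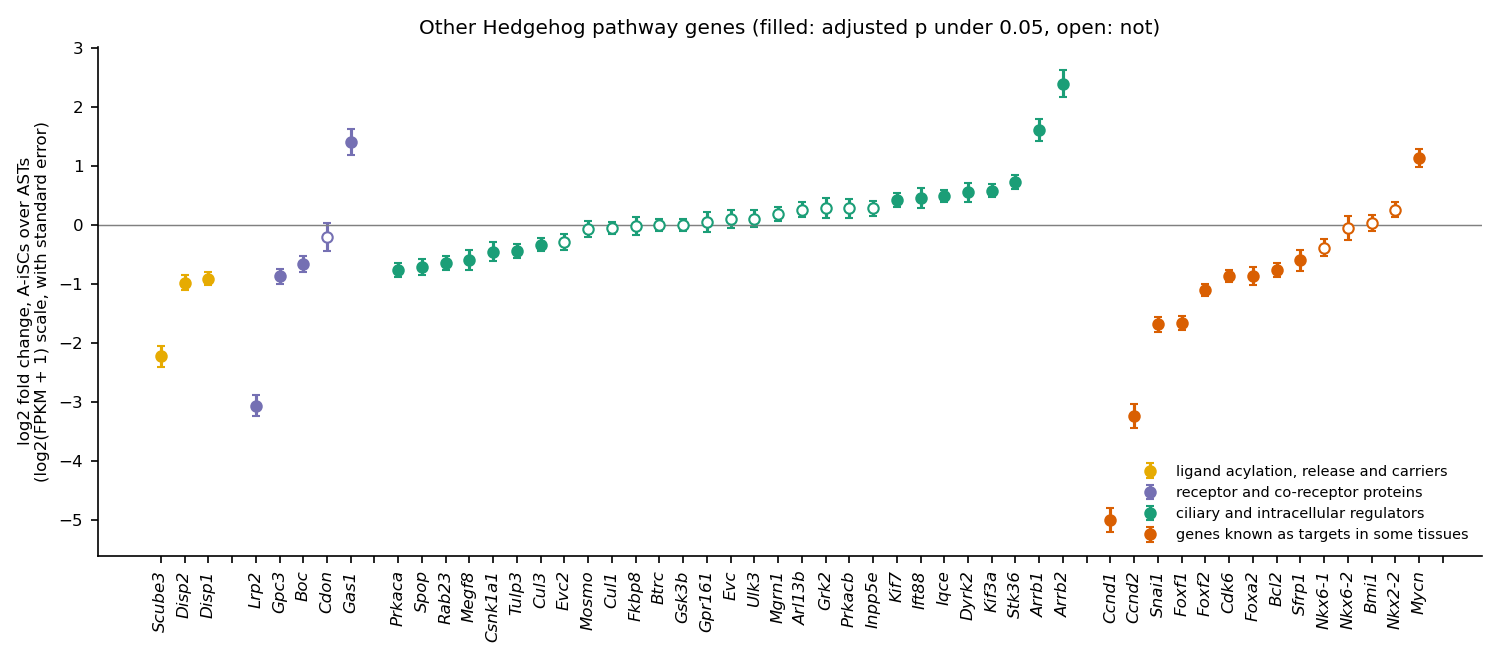
log2 fold change of A-iSCs over ASTs on the log2(FPKM + 1) scale (vertical axis) for the 51 other pathway genes that passed the filter, by role, with standard errors. Filled points passed the test (limma, adjusted p under 0.05) and open points did not. All 3 ligand release and carrier genes lie below 0, and Ccnd1 is the lowest point at -5.00.

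The carrier gene Scube3 and the receptor gene Boc were also lower in both fresh suspensions than in the ASTs. So were the transporter gene Disp1 and the receptor gene Lrp2, but both passed the filter through the ASTs alone, so the filter fixed their direction. In the P56-NPCs, 18 of 52 tested genes were higher and 25 lower, beside the background of 39.1% and 39.8%. The higher share of the calls was 41.9% against 49.5% over all genes, and became 29.3% (12 higher, 29 lower) against 37.7% with library size alone. With the upper quartile 22 were higher and 22 lower, where 56.1% of the calls over all genes were higher. Without ASTs replicate 2 the counts were 17 and 25. In the P0-NPCs, 25 of 53 were higher and 21 lower, beside 38.1% and 40.9%. The higher share was 54.3% against 48.2% over all genes, 59.6% (28 and 19) against 59.4% with library size alone, and 66.7% (30 and 15) against 64.1% with the upper quartile. Without ASTs replicate 2 the counts were 24 and 23. Of the genes that were lower, 9 of 25 and 6 of 21 passed the filter through the ASTs alone, and of those that were higher, 2 of 18 and 3 of 25 through the suspension alone. Scube3 was lower in both (-2.66 ± 0.17, adjusted p = 5.8e-06, and -2.30 ± 0.17, adjusted p = 6.92e-06), as were Disp1 (-1.49 ± 0.07 and -1.59 ± 0.08), Lrp2 (-3.47 ± 0.16 and -3.59 ± 0.16) and Boc (-1.27 ± 0.11 and -2.15 ± 0.13). Disp2 was higher in both (0.78 ± 0.12, adjusted p = 0.000561, and 0.83 ± 0.14, adjusted p = 0.000817), and so was Gas1 (0.50 ± 0.07 and 1.74 ± 0.08). The ligand carrier Scube1 was higher in the P0-NPCs at 1.77 against 0.0530 FPKM (1.39 ± 0.09, adjusted p = 3.96e-06), having passed the filter through them alone. Gpc3 was also higher in the P0-NPCs at 17.7 against 1.71 FPKM (2.78 ± 0.12). It was lower in the P56-NPCs (-0.61 ± 0.11) and passed the filter there through the ASTs alone.

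Within the cell, Arrb1 was higher in both suspensions (4.31 ± 0.12 and 3.05 ± 0.12), and since it was at 0.924 FPKM in the ASTs it passed the filter through the suspension alone, which fixed its direction. The microglia markers summed to 235 to 244 FPKM in the P56-NPCs and to 23.4 to 31.8 FPKM in the P0-NPCs, against 21.2 to 26.4 FPKM in the ASTs, and their part in the Arrb1 level was not tested. Gpr161, which restrains the pathway at the cilium, was lower in the P56-NPCs (-0.86 ± 0.11, adjusted p = 0.000195) and higher in the P0-NPCs (1.43 ± 0.08, adjusted p = 1.1e-06) than in the ASTs. Prkacb, a further catalytic subunit of protein kinase A, and the receptor kinase gene Grk2 were higher in both suspensions. Prkacb was at 30.1 FPKM in the P56-NPCs (adjusted p = 3.97e-06) and at 25.6 FPKM in the P0-NPCs (1.27 ± 0.10), and Grk2 at 52.2 FPKM (1.14 ± 0.10) and 28.0 FPKM (0.27 ± 0.09, adjusted p = 0.0232). This last call was lost without ASTs replicate 1 or 3 or P0-NPCs replicate 2 or 3, with adjusted p between 0.0631 and 0.0789, and with all 4 groups in 1 fit (adjusted p = 0.114). Dyrk2, a kinase that acts on Gli proteins, was higher in the P0-NPCs (2.40 ± 0.11) and did not pass the test in the P56-NPCs (0.19 ± 0.09, adjusted p = 0.106), where Dyrk2 passed with the upper quartile (0.32, adjusted p = 0.00754). Tulp3 and Evc2, which act at the primary cilium, were lower in both (Tulp3 -0.81 ± 0.06 and -1.11 ± 0.08, Evc2 -0.89 ± 0.07 and -0.90 ± 0.08), and so was Rab23 (-0.41 ± 0.06 and -1.09 ± 0.07). Kif7 was higher in the P0-NPCs (0.54 ± 0.09, adjusted p = 0.000795). Its lower level in the P56-NPCs (-0.23 ± 0.09, adjusted p = 0.0434) lost its call without ASTs replicate 1 or 2 or without any of the 3 P56-NPC samples, with adjusted p between 0.0593 and 0.150, and with upper quartile scaling (-0.13, adjusted p = 0.200). This call was also lost with limma-voom on recovered fragments (-0.37, adjusted p = 0.0506). Cdon was lower in the P56-NPCs (-1.03 ± 0.16, adjusted p = 0.000752) and did not pass the test in the P0-NPCs (0.40 ± 0.18, adjusted p = 0.0667), where it passed without ASTs replicate 1 (0.52, adjusted p = 0.0372) and with the other scalings.

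Nkx6-2 and Nkx2-2, homeodomain factors of the ventral neural tube and of oligodendrocytes, were higher in the P56-NPCs (2.05 ± 0.16 and 1.33 ± 0.08), where the oligodendrocyte lineage markers were highest, and the part of those cells was not tested. Both were lower in the P0-NPCs (Nkx6-2 at 0.0247 against 14.6 FPKM, -3.90 ± 0.15, and Nkx2-2 -1.22 ± 0.11), where both passed the filter through the ASTs alone. Mycn was at 23.5 FPKM in the P0-NPCs against 1.15 in the ASTs (3.50 ± 0.11, adjusted p = 9.9e-08), and the Notch ligand gene Jag2 was higher in both suspensions (1.02 ± 0.08 and 2.68 ± 0.11), where it passed the filter through the suspension alone. Foxf2 was lower in the P56-NPCs (-0.99 ± 0.10), having passed the filter there through the ASTs alone, and higher in the P0-NPCs (1.35 ± 0.09). Ccnd1 and Ccnd2 were lower in both (Ccnd1 -5.22 ± 0.19 and -5.01 ± 0.16, Ccnd2 -3.90 ± 0.18 and -2.76 ± 0.11), and so was Snai1 (-2.13 ± 0.10 and -0.94 ± 0.11), which passed the filter through the ASTs alone against the P56-NPCs.

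Directly between the spheres and the fresh suspensions, the A-iSCs had 16 of 45 genes higher and 11 lower than the P56-NPCs, beside 30.1% and 30.9% of all genes tested. The higher share of the calls was 59.3% against 49.4% over all genes, and with library size alone it was 80.0% (28 higher, 7 lower) against 74.5%, and with the upper quartile 65.5% (19 and 10) against 52.4%. Without A-iSCs replicate 3 the counts were 18 and 14. Against the P0-NPCs, 9 of 50 were higher and 20 lower, beside 31.5% and 33.6%, or 9 and 26 without A-iSCs replicate 3. The higher share of these calls was 31.0% against 48.3% over all genes, 28.6% (10 and 25) against 44.2% with library size alone, and 22.9% (8 and 27) against 38.6% with the upper quartile. Of the genes that were higher, 2 of 16 and 3 of 9 passed the filter through the A-iSCs alone, and of those that were lower, 2 of 11 and 7 of 20 through the suspension alone. Boc was higher in the A-iSCs than in either (0.61 ± 0.10 and 1.49 ± 0.12), and so was Arrb2 (1.39 ± 0.22 and 1.18 ± 0.22). Disp1 was also higher than in either (0.58 ± 0.11, adjusted p = 0.00304, and 0.68 ± 0.11, adjusted p = 0.00115), but it passed the filter through the A-iSCs alone in both, which fixed its direction. Gas1 and Cdon were higher than in the P56-NPCs (0.90 ± 0.21 and 0.83 ± 0.19), as were Gpr161 (0.92 ± 0.18) and Kif7 (0.65 ± 0.11). Against the P0-NPCs, Gas1 did not pass the test (-0.33 ± 0.21, adjusted p = 0.204), but it passed without A-iSCs replicate 3 (-0.59, adjusted p = 0.000528). Cdon was called lower there (-0.60 ± 0.20, adjusted p = 0.0316), a call lost without A-iSCs replicate 1 or 2 or any of the 3 P0-NPC samples, with adjusted p between 0.0554 and 0.116. Kif7 did not pass the test against the P0-NPCs (-0.12 ± 0.11, adjusted p = 0.379).

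Other genes lower in the A-iSCs than in the P56-NPCs were Disp2 (-1.76 ± 0.11), Arrb1 (-2.70 ± 0.18), Spop (-1.56 ± 0.12), Prkacb (-1.22 ± 0.16), Nkx6-2 (-2.10 ± 0.14), Nkx2-2 (-1.08 ± 0.12) and Jag2 (-1.01 ± 0.11). Sfrp1, a secreted Wnt antagonist, Mycn and the cell cycle kinase gene Cdk6 were higher (1.46 ± 0.16, 0.92 ± 0.18 and 0.81 ± 0.09). Of these, Disp2 and Jag2 passed the filter through the P56-NPCs alone and Cdk6 through the A-iSCs alone. Scube3 was called higher (0.43 ± 0.13, adjusted p = 0.0217), and lost its call without A-iSCs replicate 2 or P56-NPCs replicate 1 or 2, with adjusted p between 0.0550 and 0.0784. Against the P0-NPCs, Disp2 (-1.81 ± 0.14), Scube1 (-1.37 ± 0.11), Gpc3 (-3.66 ± 0.15), Dyrk2 (-1.85 ± 0.16), Arrb1 (-1.45 ± 0.17), Gpr161 (-1.37 ± 0.17), Jag2 (-2.67 ± 0.14), Foxf2 (-2.45 ± 0.11) and Mycn (-2.37 ± 0.16) were lower. Nkx6-2 (3.85 ± 0.14), Nkx2-2 (1.47 ± 0.15), Tulp3 (0.67 ± 0.11) and Arl13b (0.65 ± 0.14) were higher. Of these, Disp2, Scube1, Gpc3, Jag2 and Foxf2 passed the filter through the P0-NPCs alone, and Nkx6-2 and Nkx2-2 through the A-iSCs alone.

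The genes most like each member over the 12 samples were found by Pearson's r of log2(FPKM + 1) among 13660 protein-coding genes. They are given as a description, since the 12 points fall into 4 groups and any gene set apart in the same group scores high. Shh was most like Serpinb9b, Il7 and Qrfpr (r of 0.997 to 0.998). Hhip was most like Dmp1, Tspan2 and Trak2 (0.993 to 0.995), Ptch1 like Phka1, Nbas and Igsf1 (all 0.989), and Gli1 like Prkcz, Trim36 and Gad2 (0.994 to 0.995). Gli2 was most like Rnf114, Pygl and Zc3h6 (0.982 to 0.983), Gli3 like Rybp, Usp1 and Uba2 (0.970 to 0.976), Sufu like Stk35, Ubtd2 and Gtf3c4 (0.962 to 0.967) and Smo like Atrnl1, Prps1l3 and Pard3b (0.922 to 0.951). No member was among the 3 genes most like another.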

How the data were processed

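RNA-seq was made by the authors from total RNA of 3 samples in each of 4 groups, with paired-end Illumina sequencing. The deposited table gives FPKM per gene and sample, normalized by the authors to gene length and library size with a further scaling between samples, and a gene length column. The submitters' processing notes name Bowtie 0.12.2 and mm8, while gene positions in the table equal GRCm38 for 54985 of 55240 shared identifiers. The counting tool and its strand setting are not given in the sources used here. FPKM times gene length was a whole multiple of 1 step in every sample (tolerance 0.02 of a step), which gave the fragments per gene.

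Groups were compared 2 at a time in 5 comparisons with limma 3.58.1 (R 4.3.3, lmFit and eBayes with trend) on log2(FPKM + 1), over genes with a mean of at least 1 FPKM in 1 of the 2 groups. Benjamini-Hochberg adjustment ran over all genes tested, with a threshold of 0.05. The fit was also run on simulated fragments for A-iSCs against ASTs. These held no outlying samples, so the run checked the code alone. Tables were handled with Python 3.11.15, pandas 2.3.3 and numpy 2.4.6. Errors on levels are SD over 3 samples and errors on log2 values are standard errors of the fit. The labels do not say whether samples came from separate cultures or animals. The p-values weigh each difference against the spread between these samples, which may not cover the variation between cultures or animals. Same-numbered samples were not paired in the labels.

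The members and the gene lists were chosen with earlier results of these data known. The genes named are all members, Boc, Cdon, Gas1, Disp1, Kif7 and Gpr161, and in each comparison and role up to 3 called genes with the largest and 3 with the smallest log2 fold change. Where this rule named a gene in 1 fresh suspension, 8 values of the other suspension were added after the values were seen. For each member the 3 genes of highest r were named. 1 item that the rule also names is not reported here. Promoter windows are from RefSeq (GRCm38.p6). Alternatives were no filter, a pseudocount of 0.1, scaling by library size or upper quartile, all groups in 1 fit, a replicate block, limma-voom on recovered fragments and leaving out each sample.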

Additional observations from a re-analysis of the deposited data

How the results depend on the processing

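Over all alternatives, the counts of other pathway genes called stayed within 1.5 times in 127 of 130 cases, and none of the pathway genes named changed direction past the threshold. The 3 exceptions came with scaling by library size alone, which gave 16 higher between A-iSCs and ASTs, and 28 higher and 7 lower between A-iSCs and P56-NPCs, and the cause was not tested. Scaling by library size moved the median of all genes by 0.193, -0.307, 0.274, 0.465 and -0.075 (log2) in the order A-iSCs, P56-NPCs and P0-NPCs against ASTs, then A-iSCs against P56-NPCs and P0-NPCs, and the upper quartile moved it by 0.194, 0.151, 0.382, 0.047 and -0.177. Of the values for the 8 members, 374 of 442 moved by less than 1 SD, and 68 moved further, under a pseudocount of 0.1, another scaling or limma-voom. Shh between A-iSCs and ASTs ranged from -5.97 to -4.72, and Gli1 between P56-NPCs and ASTs from 2.69 to 7.90. The number of members with a positive difference went from 3 of 7 to 5 of 8 between A-iSCs and P56-NPCs by library size alone, where Shh passed the filter and Gli3 turned to 0.13, and from 2 to 1 of 6 between A-iSCs and P0-NPCs by the upper quartile, where Smo turned to -0.03. Leaving out each sample in turn gave 7 to 12 higher and 16 to 22 lower between A-iSCs and ASTs, 16 to 17 and 22 to 25 for P56-NPCs and 20 to 24 and 19 to 23 for P0-NPCs against ASTs, 13 to 18 and 10 to 14 between A-iSCs and P56-NPCs, and 9 to 10 and 16 to 26 between A-iSCs and P0-NPCs. Members with a positive difference ranged from 1 to 4 between A-iSCs and ASTs. The lowest count came without A-iSCs replicate 3, where Ptch1 and Smo turned negative. The highest came without A-iSCs replicate 1, where Sufu turned positive. Same-numbered samples did not deviate together in every pair (residual r of -0.38 to 0.43 between A-iSCs and ASTs), so the numbers were not taken as pairs. A fit with a replicate block called 9 genes higher and 21 lower between A-iSCs and ASTs, 17 and 23 for P56-NPCs and 23 and 22 for P0-NPCs against ASTs, 15 and 10 between A-iSCs and P56-NPCs, and 9 and 20 between A-iSCs and P0-NPCs. Of the genes named, Kif7 lost its call in P56-NPCs against ASTs with this block (adjusted p = 0.0633), and Cdon gained one in P0-NPCs against ASTs (adjusted p = 0.0302). With no filter, Kif7 lost its call in A-iSCs (adjusted p = 0.0519) and in P56-NPCs (0.0925) against ASTs, Scube3 in A-iSCs against P56-NPCs (0.0514) and Cdon in A-iSCs against P0-NPCs (0.0719). Depth limited Shh in the fresh suspensions, Hhip in the A-iSCs and Gli1 in the ASTs, each counted in 16 fragments or fewer per sample.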

Other observations

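The neighbours of Shh were looked at after its values had been seen. Of 11 protein-coding genes within 1 Mb, the nearest, Rbm33, lies 37.6 kb away and had a mean level in the ASTs of 0.911 times that in the A-iSCs, where it was at 3.73 ± 0.526 FPKM (SD, n = 3). Lmbr1, whose intron holds the limb enhancer of Shh, was at 1.86 ± 0.181 FPKM in the ASTs and 3.09 ± 0.858 FPKM in the A-iSCs. Insig1 and En2 had the highest ratio of ASTs to A-iSCs among these neighbours, at 2.63 and 2.50, against 60.3 for Shh.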
